A study of Homo sapiens with 4 samples.

Results

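The genes described here encode the machinery that licenses replication origins and copies DNA: the MCM2-7 helicase, the origin recognition complex, the helicase loaders and activators, the replicative polymerases, the sliding clamp and its loader, the flap nuclease and ligase of the lagging strand, replication protein A and the enzymes that supply deoxynucleotides. The 44 genes were taken by name from a list of known replication factors, drawn up with earlier results of these data known, and each was found once among the 57905 gene identifiers of the deposited table. Messenger RNA was sequenced from cells labelled MG63, a human osteosarcoma line, which were transfected with an siRNA against KLF11, a Krüppel-like zinc finger transcription factor, or with a control siRNA, and harvested 48 hours later. There were 2 libraries of KLF11 siRNA cells (siKLF11 in the plots) and 2 of control siRNA cells (siNC). All 4 libraries carry the label of a single cell line, the siRNA sequences are not known here, and no label ties the replicates to separate cultures. The p-values therefore reflect spread between libraries of the same group, pooled in part over all tested genes, and that spread could be technical.

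A replication origin is licensed in G1, when the origin recognition complex, CDC6 and CDT1 load the ring-shaped MCM2-7 helicase onto DNA. At the start of S phase CDC45 and the GINS complex bind the MCM ring and turn it into the active helicase, and geminin keeps CDT1 from loading new rings. Polymerase alpha-primase then lays down primers, RFC places the PCNA clamp on them, and polymerases epsilon and delta extend the leading and lagging strands. Transcripts of many of these factors rise at the G1/S transition under the control of E2F transcription factors, and their levels are widely used as a sign of proliferation.

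All values are FPKM, fragments scaled for transcript length and library size, as deposited, with replicate 1 before replicate 2. A fold is the mean FPKM with KLF11 siRNA over that in control. Log2 changes are differences of mean log2(FPKM + 1), KLF11 siRNA minus control siRNA, with adjusted p-values from limma with Benjamini-Hochberg adjustment over all 15320 genes with a mean of at least 1 FPKM, and a gene was called at an adjusted p under 0.05.

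KLF11 itself measured 5.49 and 6.74 FPKM in the KLF11 siRNA libraries, against 12.3 and 12.4 FPKM in the control libraries (limma log2 change -0.92, adjusted p = 0.00951). Without control replicate 1 or 2 the log2 change was -0.92 or -0.91, with limma adjusted p = 0.116 or 0.113. Of the osteoblast lineage markers that bear on the MG63 label, COL1A1, COL1A2, ALPL and SPARC reached the filter of a mean of 1 FPKM, and COL1A1 was called lower, at 11.9 and 15.8 FPKM with KLF11 siRNA against 23.3 and 22.3 FPKM in control. The other 5 did not reach it: RUNX2 was at most 0.65 FPKM, SP7 at most 0.04 FPKM, BGLAP at most 1.39 FPKM, POSTN at most 1.14 FPKM, and IBSP was listed at 0 in all 4 libraries. Markers of pluripotent cells were present in both groups and summed to 2867 and 2377 FPKM in the KLF11 siRNA libraries, against 1449 and 1466 FPKM in the control libraries, with 6 of 8 called higher, LIN28A called lower, TDGF1 not called and none of them at 0. Early endoderm markers summed to 1284 and 2987 FPKM with KLF11 siRNA and to 5063 and 5028 FPKM in control, with 5 of 8 called lower and 2 called higher, and with AFP listed at 0 in both control libraries and APOA2 in KLF11 siRNA replicate 1. Epithelial markers summed to 737 and 1008 FPKM with KLF11 siRNA and to 2124 and 1951 FPKM in control, and 6 of 6 were called lower. Leukocyte markers summed to less than 1 FPKM in each library. High pluripotent and early endoderm markers, with RUNX2, SP7 and IBSP below the filter, put the MG63 label in doubt. COL1A2, ALPL and SPARC were well expressed, and the identity of the cells was not tested. All mitochondrially encoded genes together, not the mRNAs alone, held 7.69% and 12.7% of all FPKM with KLF11 siRNA and 9.0% and 12.3% in control. The part of these shifts in the replication results was not tested.

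Replication genes were on balance higher with KLF11 siRNA. All 44 passed the filter on low values, at levels from 6.89 to 172 FPKM, and their summed level was 2286 and 2200 FPKM in the KLF11 siRNA libraries, against 1689 and 1673 FPKM in the control libraries. Of the 44, 19 were called higher (43.2%) and 2 lower (4.55%), whereas 13.5% of all tested genes were called higher and 21.7% lower. The median log2 change was 0.35 for the replication genes and -0.11 for all tested genes. The changes were modest: 11 members, all called, reached 1.5-fold (9.8% of all tested genes were called higher at that size). PCNA, TYMS and ORC1 were the 3 that reached 2-fold, and the share of all tested genes at 2-fold was not counted. Both KLF11 siRNA libraries lay above both control libraries for 34 members and below them for 5, against 28.9% and 44.5% of all tested genes. RNA from bulk cells does not tell a higher level in each cell from a larger share of cells in S phase. Median-of-ratios scaling moved the median of all tested genes to -0.01, called 26 members higher and 0 lower (1 lower at an unadjusted p under 0.05), and gave 2728 higher and 2664 lower genes in all, against 2071 and 3329 with FPKM as deposited. Dropping control replicate 1 gave the members a median log2 change of 0.34, against -0.09 for all tested genes. Dropping control replicate 2 gave 0.31, against -0.13. Either fit keeps 1 control library, so its calls are not weighed here. With no filter on low values, 8 members were called higher and 0 lower (24 and 3 at an unadjusted p under 0.05). Among all 34232 genes of that fit, 887 were called higher and 1251 lower (3607 and 5770 at an unadjusted p under 0.05).

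**Figure D1:**
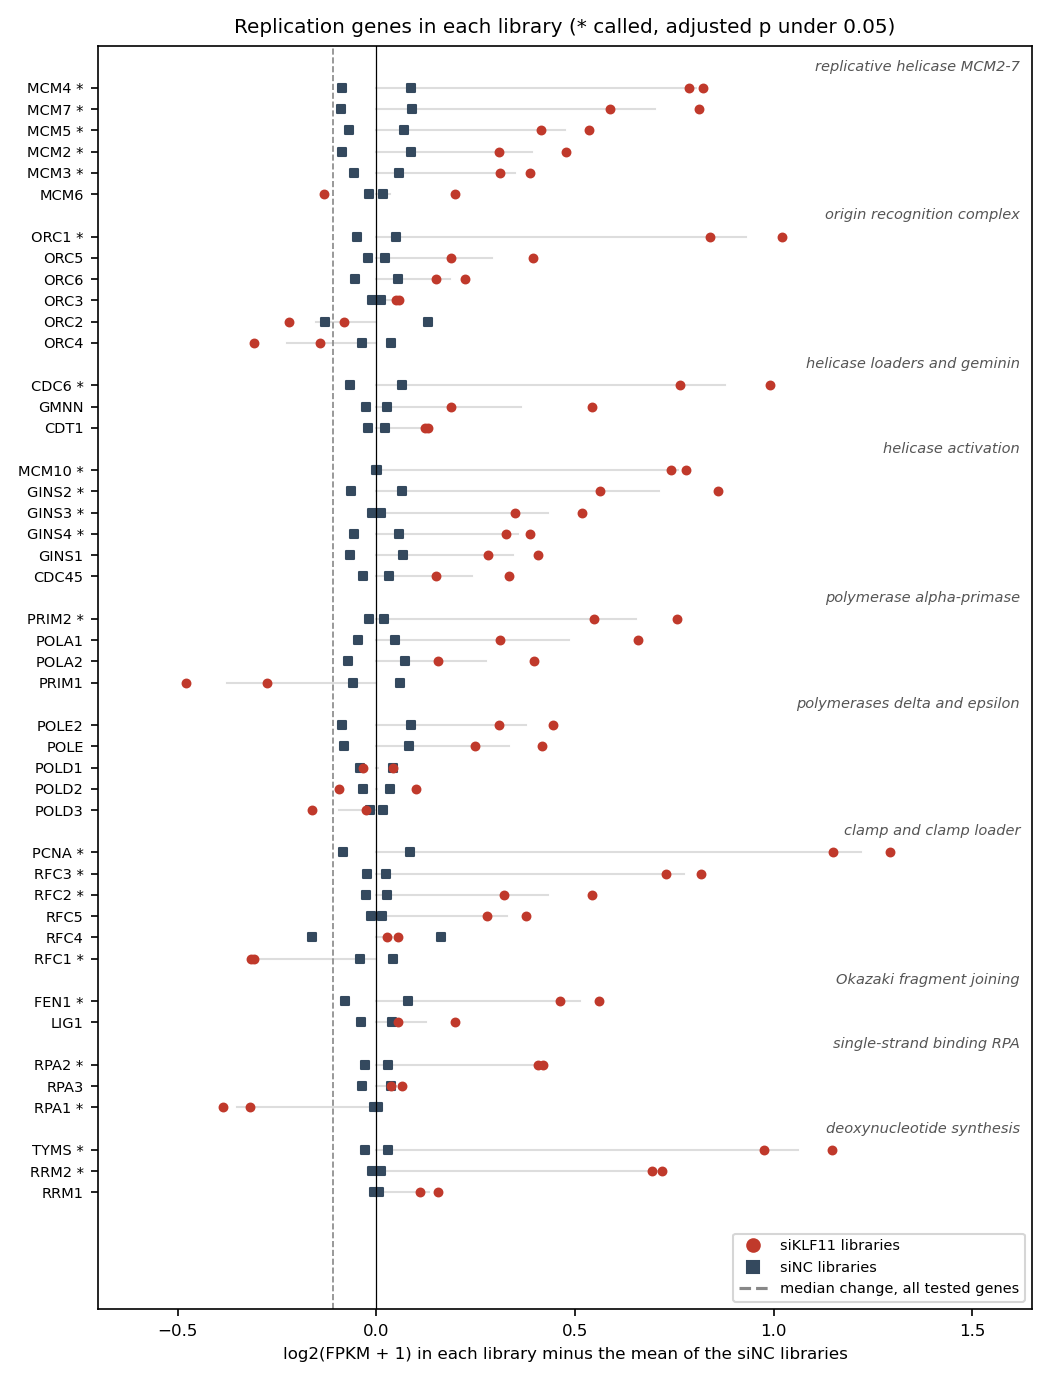
Each row is a replication gene, grouped by role and sorted by change. Points give log2(FPKM + 1) in each KLF11 siRNA library (red circles) and each control siRNA library (dark squares) minus the mean of the control libraries, grey lines give the mean change, the dashed line is the median change of all tested genes (-0.11), and asterisks mark the 21 called genes, 19 to the right and 2 to the left.

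Because E2F sites are the known link between many of these genes, the promoters were read for E2F-motif letters before the levels are given complex by complex. RefSeq promoter windows (GRCh38.p14, 250 bases before to 50 after an annotated start) matched 38 members by symbol, with 48 windows in all. The motif was searched on both strands as TTTCCCGC, TTTCGCGC, TTTGCCGC or TTTGGCGC. At least 1 match was found for 19 of these 38 members, against 3.99% of all 27305 genes in the RefSeq promoter set. A match was found in 39.6% of the members' windows, against 3.31% of all windows of that length. The RefSeq set was not limited to genes expressed in these cells, as all members were. Of 25 matches, 15 began within the 100 bases before the start, 2 overlapped a GC box (GGGCGG) and 1 a CCAAT box. CCAAT, read on both strands, was found for 60.5% of the 38 members and 39.7% of all genes. GGGCGG was found for 73.7% and 48.3%, and CACCC for 55.3% and 63.1%. A match describes letters and does not show that a factor binds there.

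The windows below show 60 bases around the match nearest the start for the called members that hold one, with MCM6, which holds matches and was not called, for contrast. Each is written 5′ to 3′ on the gene's strand, and capitals mark E2F-motif matches. MCM2 lies at chr3:127598387-127598446 on the plus strand, MCM3 at chr6:52284713-52284772 on the minus strand, MCM7 at chr7:100101373-100101432 on the minus strand, RFC3 at chr13:33818068-33818127 on the plus strand, GINS3 at chr16:58392440-58392499 on the plus strand, GINS2 at chr16:85688952-85689011 on the minus strand, CDC6 at chr17:40287860-40287919 on the plus strand, TYMS at chr18:657588-657647 on the plus strand and MCM6 at chr2:135876496-135876555 on the minus strand.
MCM2: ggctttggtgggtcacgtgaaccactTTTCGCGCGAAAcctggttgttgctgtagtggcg
MCM3: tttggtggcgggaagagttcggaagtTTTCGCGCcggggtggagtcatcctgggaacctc
MCM7: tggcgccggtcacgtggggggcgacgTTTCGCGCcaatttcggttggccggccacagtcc
RFC3: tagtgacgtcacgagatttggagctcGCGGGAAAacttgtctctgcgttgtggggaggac
GINS3: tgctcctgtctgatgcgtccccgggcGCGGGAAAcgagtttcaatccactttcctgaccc
GINS2: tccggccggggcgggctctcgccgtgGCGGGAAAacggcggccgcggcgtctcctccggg
CDC6: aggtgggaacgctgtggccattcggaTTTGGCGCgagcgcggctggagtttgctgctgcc
TYMS: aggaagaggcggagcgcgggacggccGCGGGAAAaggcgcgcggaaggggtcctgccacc
MCM6: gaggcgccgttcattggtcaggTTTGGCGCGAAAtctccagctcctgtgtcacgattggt

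PCNA had the largest change of the 44, and 1 of its 2 annotated windows held a match. That whole window, chr20:5126573-5126872 on the minus strand, is shown with capitals marking the E2F-motif match and 3 CCAAT boxes.
PCNA: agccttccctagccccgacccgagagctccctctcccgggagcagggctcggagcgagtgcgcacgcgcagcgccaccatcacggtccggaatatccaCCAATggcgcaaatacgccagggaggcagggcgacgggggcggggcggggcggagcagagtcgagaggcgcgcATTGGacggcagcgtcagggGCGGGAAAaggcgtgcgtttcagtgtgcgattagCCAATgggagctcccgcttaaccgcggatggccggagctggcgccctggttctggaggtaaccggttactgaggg

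Of the 19 members with a match, 9 were called higher, and their median log2 change was 0.38. Of the 19 members with sequence and no match, 6 were called higher, with a median of 0.19. Both members called lower, RPA1 and RFC1, had no match in their windows. MCM4, MCM5, GINS4 and RPA2 were called higher but had no window, so they are in neither group. The split is a description and was not tested. Members with a match that were not called numbered 10, among them ORC3, CDT1, LIG1 and MCM6. The MCM6 window held 4 overlapping matches in 2 places, and its level overlapped between groups.

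**Figure D2:**
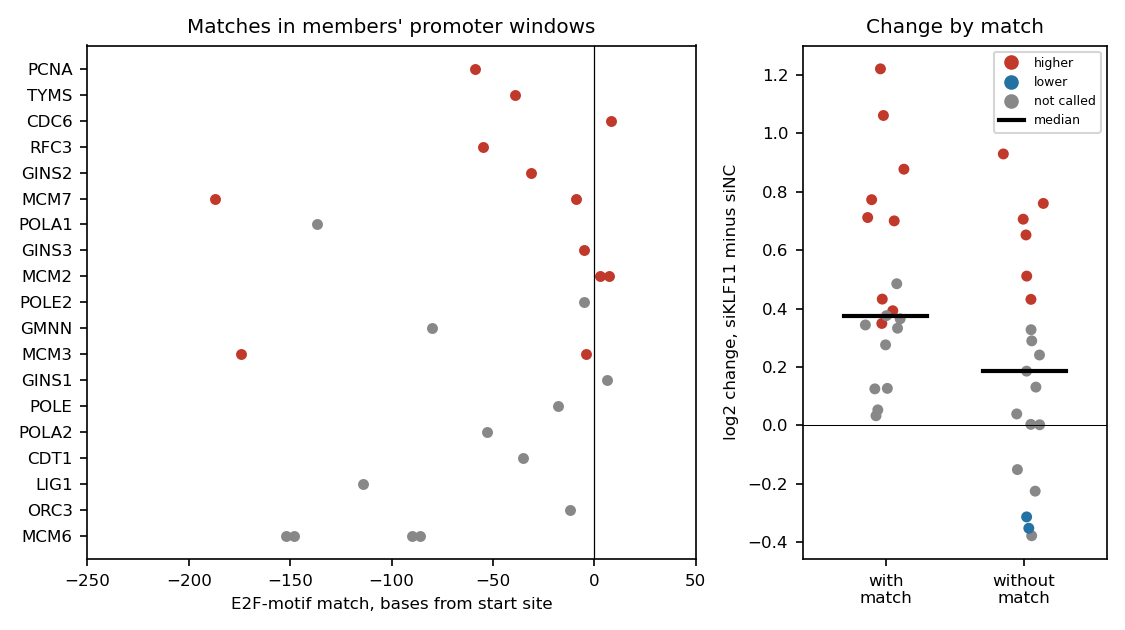
Left, the first base of each E2F-motif match relative to the annotated start (bases) for the 19 members with a match, ordered by change and coloured by call. Right, log2 change of members with and without a match, with medians of 0.38 and 0.19 as bars, and with both called-lower genes in the group without a match.

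Among the licensing factors, the MCM2-7 helicase moved nearly as a whole. Its 6 subunits form the ring that unwinds DNA, and 5 of the 6 were called higher, MCM6 being the exception. MCM4 measured 152 and 148 FPKM with KLF11 siRNA, against 90.7 and 80.4 FPKM in control (1.75-fold, log2 change 0.81, SE 0.0931, limma adjusted p = 0.00551). MCM7 measured 146 and 125 FPKM, against 87.9 and 77.5 FPKM (1.63-fold, limma adjusted p = 0.012). For both genes each KLF11 siRNA library was far above each control library. MCM5 (1.39-fold), MCM2 (1.32-fold) and MCM3 (1.28-fold) rose less, with adjusted p-values from 0.0191 to 0.0468 in limma. Of 11 fits with 4 libraries, MCM2 was called in 5 (adjusted p up to 0.112) and MCM3 in 7 (up to 0.0793). MCM6 measured 89.0 and 112 FPKM with KLF11 siRNA, against 96.3 and 98.8 FPKM in control, so the controls fell between the KLF11 siRNA values (log2 change 0.03, limma adjusted p = 0.856). As FPKM is per length, the subunits can be ranked, and MCM6 was the highest of the 6 in both control libraries while MCM4 was the highest in both KLF11 siRNA libraries, with MCM2 the lowest throughout.

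The origin recognition complex marks origins, and 1 of its 6 subunits was called. That share, 16.7% called higher, was near the 13.5% of all tested genes. ORC1, the subunit known to be degraded and remade in each cycle in human cells, measured 18.9 and 16.5 FPKM with KLF11 siRNA, against 9.14 and 8.47 FPKM in control (2.01-fold, log2 change 0.93, SE 0.121, limma adjusted p = 0.00686). The other 5 subunits were not called. ORC5 and ORC6, above both controls in both KLF11 siRNA libraries, had log2 changes of 0.29 and 0.19, ORC3 of 0.05, ORC2 of -0.15 and ORC4 of -0.22, with adjusted p-values from 0.122 to 0.661 in limma. In control libraries ORC1 was the lowest of the 6 subunits, and with KLF11 siRNA that place was held by ORC5, at 14.99 and 12.86 FPKM.

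Of the loaders, CDC6, an ATPase that works with ORC to load the MCM ring onto DNA, measured 67.7 and 57.7 FPKM with KLF11 siRNA, against 35.1 and 32.0 FPKM in control (1.87-fold, limma adjusted p = 0.00677). CDT1, which brings the MCM ring to ORC, was not called, at 27.9 and 28.1 FPKM against 25.9 and 25.2 FPKM (limma adjusted p = 0.306). GMNN, which encodes the CDT1 inhibitor geminin, measured 66.6 and 51.7 FPKM with KLF11 siRNA and 44.5 and 46.2 FPKM in control. Its groups did not overlap, but the KLF11 siRNA libraries were far apart and it was not called (limma adjusted p = 0.0919).

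**Figure D3:**
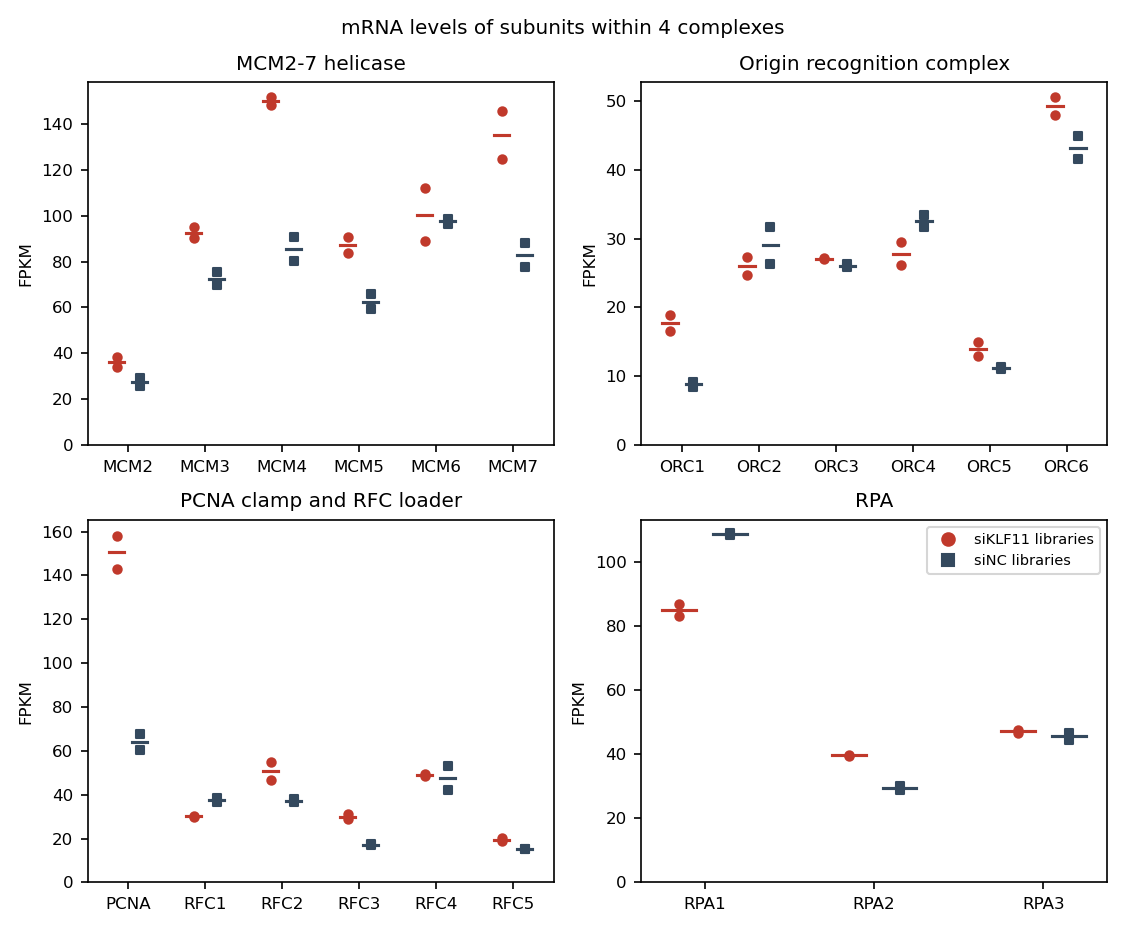
FPKM of each subunit of MCM2-7, the origin recognition complex, the PCNA clamp with its RFC loader, and RPA, in KLF11 siRNA libraries (red circles, left) and control siRNA libraries (dark squares, right), with bars at the mean of 2 libraries. In MCM2-7 the groups overlap for MCM6, in the origin recognition complex ORC1 stands apart, and RFC1 and RPA1 are lower with KLF11 siRNA while their partners RFC3 and RPA2 are higher.

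Factors that activate the loaded helicase went one way, with positive log2 changes for 6 of 6 and 4 called higher. Of all 15320 tested genes, 6286 had a positive log2 change. MCM10, which binds the activated helicase and is needed for it to fire, measured 18.6 and 18.1 FPKM with KLF11 siRNA, against 10.4 FPKM in each control library (1.76-fold, log2 change 0.76, SE 0.101, limma adjusted p = 0.00724). GINS2 measured 32.0 and 25.9 FPKM, against 18.03 and 16.4 FPKM (1.68-fold, limma adjusted p = 0.0161), and its GINS partners GINS3 and GINS4 were 1.40-fold and 1.3-fold higher, with adjusted p-values of 0.0473 and 0.045 in limma. GINS3 and GINS4 were each called in 6 of 11 fits with 4 libraries (adjusted p up to 0.0963 and 0.0887). The fourth subunit, GINS1, had a log2 change of 0.34 and missed the threshold (limma adjusted p = 0.0578). CDC45, which bridges MCM2-7 and GINS, had a log2 change of 0.24 (limma adjusted p = 0.162), and no KLF11 siRNA library overlapped the controls for either gene.

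The subunits of polymerase alpha-primase, the enzyme that starts each new strand, did not move together. PRIM2, the large regulatory subunit of primase, measured 17.4 and 14.9 FPKM with KLF11 siRNA, against 9.75 and 10.0 FPKM in control (1.63-fold, limma adjusted p = 0.0158). PRIM1, the catalytic subunit, measured 12.7 and 14.8 FPKM, against 17.4 and 18.9 FPKM, with a log2 change of -0.38 that missed the threshold (limma adjusted p = 0.0639; 0.0435 with TPM scaling, and from 0.0435 to 0.161 over all alternatives with 4 libraries). Both groups were apart for each of these subunits, in opposite directions. POLA1, the polymerase subunit, and POLA2, its accessory subunit, had log2 changes of 0.49 and 0.28 and were not called (limma adjusted p = 0.0668 and 0.132). PRIM1 exons share 33 bases with NACA, an abundant gene of the same strand in GENCODE, which measured 689 and 643 FPKM with KLF11 siRNA and 642 and 633 FPKM in control.

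None of the 5 polymerase delta and epsilon genes was called by limma, and 2 of them, POLE and POLE2, had an unadjusted p under 0.05. Polymerase delta copies the lagging strand, and its catalytic subunit POLD1 measured 35.2 and 33.4 FPKM with KLF11 siRNA, against 35.3 and 33.2 FPKM in control. POLD2 and POLD3, its accessory subunits, had log2 changes of 0.00 and -0.09. For POLD1 and POLD2 the groups overlapped fully. The polymerase epsilon genes of the leading strand, POLE and POLE2, were higher in both KLF11 siRNA libraries, with log2 changes of 0.33 and 0.38, and missed the threshold (limma adjusted p = 0.0684 and 0.0648); with median-of-ratios scaling both were called (0.0251 and 0.0351).

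PCNA, the ring that tethers polymerases to DNA, had the largest change among the replication genes. It measured 158 and 143 FPKM with KLF11 siRNA, against 60.3 and 67.9 FPKM in control (2.35-fold, log2 change 1.22, SE 0.102, limma adjusted p = 0.00334). Its loader, the RFC complex, was split. RFC3 was 1.75-fold higher, at 31.0 and 29.1 FPKM against 16.9 and 17.5 FPKM (limma adjusted p = 0.00622), and RFC2 was 1.36-fold higher (limma adjusted p = 0.0321). RFC5 had a log2 change of 0.33 and missed the threshold (limma adjusted p = 0.0564), and RFC4 measured 49.3 and 48.3 FPKM with KLF11 siRNA, between the 42.3 and 53.2 FPKM of the control libraries. RFC1, the large subunit specific to the replicative loader, was lower, at 30.15 and 29.99 FPKM against 36.5 and 38.7 FPKM (log2 change -0.31, limma adjusted p = 0.044). Among the settings under which RFC1 was not called were median-of-ratios scaling (log2 change -0.20, limma adjusted p = 0.16), quantile normalization (0.0989), no filter (0.0794) and eBayes without a trend (0.0875). It was called in 6 of 11 fits with 4 libraries, with adjusted p from 0.0339 to 0.16.

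On the lagging strand, FEN1, the nuclease that trims the flaps of Okazaki fragments, measured 70.9 and 66.2 FPKM with KLF11 siRNA, against 50.5 and 45.2 FPKM in control (1.43-fold, limma adjusted p = 0.0163). LIG1, the ligase that seals the fragments, was at 32.1 and 35.6 FPKM against 31.8 and 30.1 FPKM and was not called (limma adjusted p = 0.361). FEN1 exons share 49 bases with FADS2 on the same strand and 166 bases with TMEM258 on the opposite strand in GENCODE. FADS2 was also higher with KLF11 siRNA, at 189 and 203 FPKM against 145 and 141 FPKM. TMEM258 measured 109 and 96.3 FPKM with KLF11 siRNA and 103 FPKM in each control library. The part of these overlaps in the FEN1 level was not tested.

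Replication protein A, the trimer that coats single-stranded DNA, went 3 ways. RPA2, the subunit phosphorylated during S phase and after damage, was higher, at 39.9 and 39.5 FPKM with KLF11 siRNA against 28.9 and 30.1 FPKM in control (1.34-fold, limma adjusted p = 0.0201). RPA1, the large DNA-binding subunit, was lower, at 86.9 and 82.9 FPKM against 108 and 109 FPKM (log2 change -0.35, limma adjusted p = 0.0245), and RPA3, the small subunit, measured 46.7 and 47.6 FPKM against 46.7 and 44.4 FPKM (limma adjusted p = 0.668). RPA1 remained the most abundant of the 3 in every library. RPA1 was called in 7 of 11 fits with 4 libraries, with adjusted p from 0.0156 to 0.0842, and among the settings without a call were median-of-ratios scaling (log2 change -0.23, limma adjusted p = 0.0842), no filter (0.0595) and eBayes without a trend (0.0663).

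Of the enzymes that supply deoxynucleotides, TYMS, which makes thymidylate, measured 172 and 152 FPKM with KLF11 siRNA, against 75.5 and 78.7 FPKM in control (2.10-fold, log2 change 1.06, SE 0.0944, limma adjusted p = 0.00358). RRM2, the small subunit of ribonucleotide reductase and the one that limits its activity in S phase, measured 155 and 158 FPKM, against 94.8 and 96.4 FPKM (1.64-fold, limma adjusted p = 0.005). Its large partner RRM1 was at 54.2 and 56.0 FPKM against 50.02 and 50.41 FPKM, above the controls in both libraries by a small margin and not called (limma adjusted p = 0.253). TYMS exons share 967 bases with ENOSF1 on the opposite strand in GENCODE, and since the strand setting of the counting is not given, reads there cannot be told apart; ENOSF1 measured 9.62 and 13.9 FPKM with KLF11 siRNA and 12.4 and 11.9 FPKM in control.

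Ratios between members of a complex within a library do not depend on how the libraries were scaled, and they show how uneven the changes were. The pairs were chosen after the values had been seen, and with 2 libraries against 2 an exact two-sided permutation test cannot go below p = 0.333, so they are given with no test. The RPA2 to RPA1 ratio was 0.459 and 0.477 with KLF11 siRNA, against 0.267 and 0.277 in control. The PRIM2 to PRIM1 ratio was 1.37 and 1.01, against 0.561 and 0.529, so PRIM2 was above PRIM1 in KLF11 siRNA replicate 1, level with it in replicate 2 and below it in both controls. RFC3 to RFC1 stood at 1.03 and 0.97 with KLF11 siRNA, against 0.462 and 0.451 in control. MCM4 to MCM6 was 1.71 and 1.32, against 0.942 and 0.814, and RRM2 to RRM1 was 2.86 and 2.82, against 1.90 and 1.91. For each of these pairs the ratios of the groups did not overlap. CDC6 to CDT1 was 2.42 and 2.05 with KLF11 siRNA, against 1.36 and 1.27 in control, while CDT1 to GMNN was 0.419 and 0.542, against 0.583 and 0.545, a gap that in KLF11 siRNA replicate 2 was smaller than the spread between libraries.

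**Figure D4:**
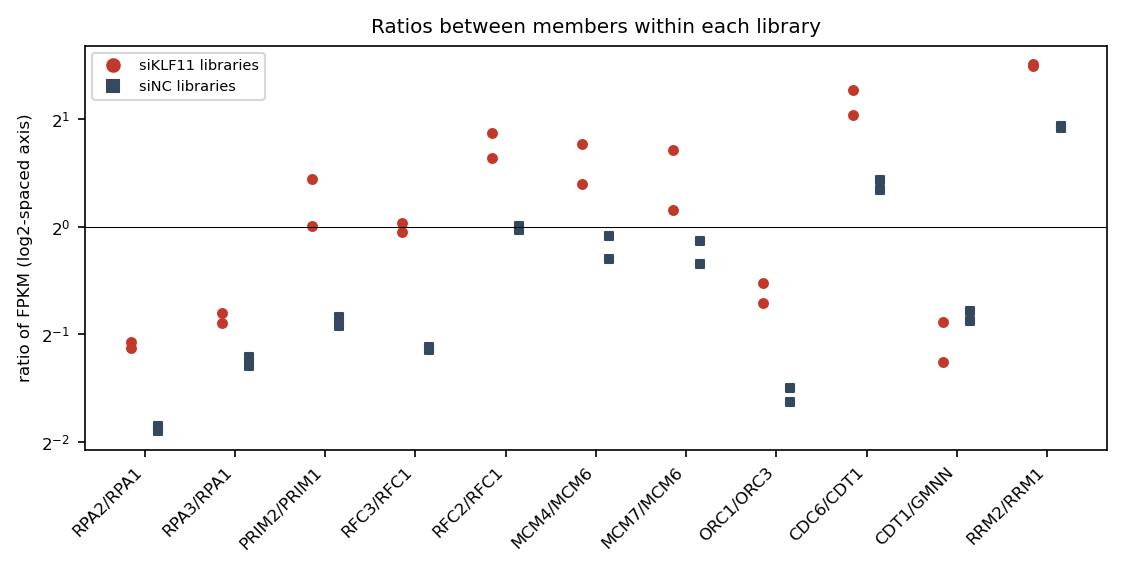
Ratio of FPKM between named members in each library (log2-spaced axis), KLF11 siRNA libraries as red circles left of control siRNA libraries as dark squares. The RPA2/RPA1, PRIM2/PRIM1 and RFC3/RFC1 ratios are each higher in both KLF11 siRNA libraries, and CDT1/GMNN is nearly the same in KLF11 siRNA replicate 2 (0.542) and control replicate 2 (0.545).

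The widest gap between the KLF11 siRNA libraries was 1.302-fold, for POLA1, and the widest between the control libraries was 1.26-fold, for RFC4, while the summed level of the members was 0.419% and 0.417% of the FPKM outside the mitochondrial genes, against 0.321% and 0.327% in control. Early endoderm markers, mostly CER1, summed to 1284 FPKM in KLF11 siRNA replicate 1 and 2987 FPKM in replicate 2, and pluripotent markers to 2867 and 2377 FPKM. Of all 44 members, 28 were higher in KLF11 siRNA replicate 1 than in replicate 2, among them 16 of the 19 called higher. The share over all tested genes was not counted.

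Beyond the members, 120 partner genes in 9 lists were measured and tested, with 47 called higher (39.2%) and 5 lower (4.17%), against 13.5% and 21.7% of all tested genes, and a median log2 change of 0.30. The lists were written with earlier results of these data known. The highest counts were in mitosis and nucleotide supply. Of 20 mitosis genes 14 were called higher and 0 lower by limma, with a median log2 change of 0.45. A negative log2 change was seen in 0 of the 20, against 9034 of all 15320 tested genes. CENPF, a kinetochore protein, measured 53.8 and 50.1 FPKM against 27.6 FPKM in each control library. BUB1B, a spindle checkpoint kinase, measured 59.9 and 49.2 FPKM against 27.3 and 27.5 FPKM. UBE2C, a ubiquitin-conjugating enzyme of mitotic exit, measured 187 and 171 FPKM against 120.2 and 112 FPKM, and AURKB, the kinase of the chromosomal passenger complex, 74.5 and 77.4 FPKM against 53.0 and 50.2 FPKM. Among 21 nucleotide supply genes 11 were called higher and 1 lower, with a median of 0.49. SHMT1, the enzyme that charges folate with a carbon unit, was 2.41-fold higher, at 31.4 and 27.8 FPKM against 12.3 and 12.2 FPKM (limma adjusted p = 0.00358), and MTHFD1, a folate-interconverting enzyme, 1.89-fold. RRM2B, the p53-induced small subunit of ribonucleotide reductase, was 3.33-fold higher, at 38.6 and 31.5 FPKM against 10.7 and 10.4 FPKM, and CTPS2, a CTP synthase, was the gene called lower, at 9.58 and 9.85 FPKM against 15.6 and 16.8 FPKM.

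Regulators of licensing and S phase entry were mixed. In the licensing control list 5 of 16 were called higher, namely DTL, CCNA2, SKP2, CCNE2 and CDC7, and CCNE1 was called lower. DTL, the substrate receptor of the ligase that destroys CDT1 on PCNA-bound DNA, measured 22.2 and 23.2 FPKM with KLF11 siRNA, against 14.8 and 12.9 FPKM in control (limma adjusted p = 0.0115). The E-type cyclins, which bind CDK2 at S phase entry, were apart in opposite directions: CCNE1 was at 15.4 and 17.9 FPKM against 26.2 and 24.1 FPKM (log2 change -0.57, limma adjusted p = 0.0198) and CCNE2 at 7.75 and 7.0 FPKM against 3.49 and 4.72 FPKM. In the E2F list 5 of 18 were called higher and 0 lower by limma (0 lower also at an unadjusted p under 0.05), namely E2F7, E2F8, TFDP1, RBL1 and MYBL2. E2F7, a repressor of E2F targets that is itself an E2F target, was 2.17-fold higher, at 8.51 and 8.41 FPKM against 3.47 and 4.31 FPKM, while E2F1, an activator, measured 9.71 and 10.9 FPKM against 9.93 and 9.38 FPKM and was not called (limma adjusted p = 0.615).

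Of 10 S phase checkpoint genes 4 were called higher and 0 lower by limma (0 lower also at an unadjusted p under 0.05): WEE1, the kinase that restrains CDK1 and CDK2, 2.39-fold (126 and 106 FPKM against 49.1 and 48.0 FPKM), CDC25A, CHEK1 and RAD1. Of 10 chromatin assembly genes CHAF1A, NASP, SUPT16H and DNMT1 were called higher and ASF1A lower. CHAF1A, the large subunit of the assembly factor that PCNA recruits, measured 47.5 and 45.8 FPKM against 24.4 and 23.9 FPKM, and ASF1A, a histone chaperone, 16.6 FPKM in each KLF11 siRNA library against 29.9 and 31.0 FPKM. Among origin firing and fork protection genes TICRR, which helps CDC45 load, was called higher and WDHD1, which links polymerase alpha to the helicase, lower, out of 9. Of 8 genes for primer removal and topology the topoisomerases TOP1 and TOP2A were called higher and RNASEH2A lower. POLE3, called higher, was the single call among 8 further polymerase subunits and clamp exchange factors. Of 11 fits with 4 libraries, RNASEH2A was called in 5 (limma adjusted p up to 0.123). WDHD1 and POLE3 were each called in 6 (up to 0.142 and 0.0896). For origin firing and for the further polymerase subunits the shares called higher, 11.1% and 12.5%, were no larger than the 13.5% of all tested genes.

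**Figure D5:**
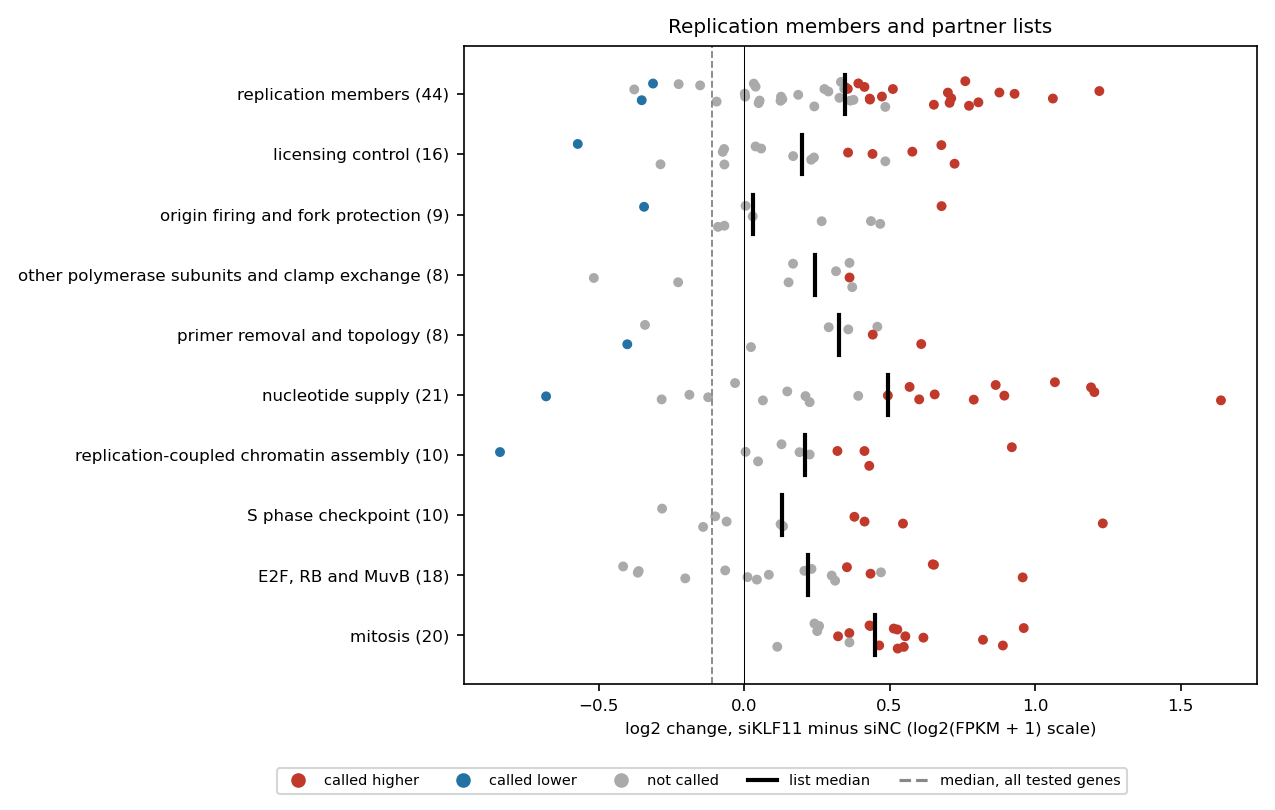
Log2 change (KLF11 siRNA minus control siRNA) of each gene in the replication members and in 9 partner lists, with the number of genes in brackets, red for called higher, blue for called lower and grey for not called. Black bars are list medians, 0.35 for the members, 0.49 for nucleotide supply and 0.45 for mitosis, and the dashed line is the median of all tested genes (-0.11).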

How the data were processed

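The authors deposited FPKM values with 2 decimals, 1 column per library, for 4 libraries of polyadenylated RNA. Trim Galore 0.5.0, RSEM 1.3.1 and hg19 (GRCh37) are named in the submitters' processing notes; the sources used here do not give the aligner, annotation or strand setting. Groups came from sample titles, and 0 value columns were left unmatched. Absolute depth is unknown; the most common ratio of low values between libraries, which follows the worth of 1 fragment, was 0.91 to 1.05, read from only 6 to 12 identifiers per pair of libraries.

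The 15320 genes whose mean reached 1 FPKM entered limma 3.58.1 under R 4.3.3 (trended eBayes, pseudocount 1, no block) and Benjamini-Hochberg adjustment; the log2(FPKM + 1) scale understates changes of low genes. The fit was checked on simulated data. Members and lists were chosen with earlier results of these data known. All members were named, and up to 4 non-overlapping called genes per partner list with the smallest p; others named for counts of 5 or fewer were chosen after their values were seen. 1 gene that this rule names is not reported here. Overlapping genes came from GENCODE, promoters from RefSeq, both on GRCh38, so no hg19 coordinates are given. Of 8 members with named pseudogenes in the table, no pseudogene exceeded 0.09 FPKM. Figures used matplotlib 3.10.9.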

Additional observations from a re-analysis of the deposited data

How the results depend on the processing

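With 2 libraries a group, calls of single genes depend on the spread within each pair. They also depend on the trend over all tested genes toward which limma draws that spread. Of the 19 members called higher, 8 were called in every alternative that kept all libraries, namely PCNA, TYMS, ORC1, CDC6, MCM4, RFC3, MCM10 and RRM2. Members called higher and lower were 18 and 2 with a pseudocount of 0.1, 19 and 2 with a pseudocount of 5, 20 and 2 with a filter of mean FPKM 5, 15 and 3 with TPM scaling, 15 and 2 with TPM scaling without mitochondrially encoded genes, 26 and 0 with median-of-ratios scaling, 24 and 1 with quantile normalization, and 14 and 0 in eBayes without a trend (23 and 3 at an unadjusted p under 0.05). Without a filter they were 8 and 0, partner genes 23 and 2, and all genes 887 and 1251. The 5 partner genes called lower became 3 with median-of-ratios scaling, with quantile normalization and in eBayes without a trend. The members' median log2 change of 0.35 was 0.30 with a pseudocount of 5, 0.31 with TPM scaling, 0.30 without the mitochondrial genes, 0.46 with median-of-ratios scaling and 0.43 with quantile normalization.

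The replicate numbers are shared between groups, but nothing in the labels says that they pair libraries, and deviations of same-numbered libraries were not related (r = -0.07 across genes, which are not independent replicates). With the replicate block 15 members were called higher and 0 lower (23 and 3 at an unadjusted p under 0.05), and partner genes called lower were 3. RFC1 and RPA1 were not called under the block (limma adjusted p = 0.0969 and 0.0518).

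With 1 library left out, members called higher ran from 0 to 19 and lower from 0 to 2, partner genes from 0 to 47 and from 0 to 6, all genes from 0 to 2291 and from 0 to 3813, the members' median from 0.31 to 0.34, and KLF11 from -1.04 to -0.79, with adjusted p-values of 0.116 and 0.113 without control siRNA replicate 1 and 2. A left-out library leaves 1 library in its group, which is assumed to vary like the other group.

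Members whose sign turned were all uncalled and near 0. With TPM scaling MCM6 was -0.0093, POLD1 -0.038, POLD2 -0.040 and RFC4 -0.0025. Without the mitochondrial genes as well, the values were -0.016, -0.045, -0.047 and -0.0092 in that order. POLD3 was 0.018 with median-of-ratios scaling and 0.025 with quantile normalization. With 1 library left out, MCM6 ran from -0.13 to 0.20, POLD1 from -0.039 to 0.046, POLD2 from -0.095 to 0.10 and RFC4 from -0.12 to 0.20. The cause of these differences was not tested.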
